A study of Mus musculus with 6 samples.

Results

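The glucocorticoid receptor gene Nr3c1, the hormone-activating enzyme gene Hsd11b1 and 8 genes known as readouts of glucocorticoid exposure, Fkbp5, Tsc22d3, Zbtb16, Sgk1, Klf9, Mt1, Mt2 and Pdk4, were examined in inguinal white adipose tissue (IngWAT) of mice. These 10 genes were taken by gene symbol from the 34745 genes in the deposited count files, and each symbol matched 1 gene. RNA-seq had been performed on 3 WT and 3 SAKI mice, and the comparison here asked whether the level of stress hormone exposure, as these genes report it, differed between the genotypes or between single libraries. SAKI mice carry a Slc35d3 transgene behind a loxP-flanked stop sequence together with adiponectin-Cre, a driver active in adipocytes. The controls, labelled wild type and called WT, are described as littermates of the Slc35d3-WT line, into which the transgene locus was placed, that lack Cre. No group carried the Cre driver alone. All 6 were males on a C57BL/6 background that were kept on normal chow (10 kcal% fat) that began when they were 6 weeks old and lasted 10 weeks, so that they were 16 weeks old at the end, and the labels record perfusion with PBS for both groups. The time of day at which tissue was taken is not given in the sources used here.

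Glucocorticoids are adrenal steroids, chiefly corticosterone in mice, whose secretion follows the clock and increases under stress. In the cytosol the receptor is held by Hsp90 and its cochaperones in a form that binds hormone, and after binding it moves to the nucleus, where it acts on gene promoters and enhancers through response elements or through other factors. In adipose tissue glucocorticoids are known for promoting adipocyte differentiation, for permitting lipolysis and for inducing feedback genes that limit their own action.

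The promoter windows of 3 members are shown because they hold the sequence elements through which glucocorticoids and metals are known to act on such genes. Sequences were taken from RefSeq for GRCm38.p6, 250 bases before to 50 bases after the start site, read along the gene, and 8 of the 10 members had an entry, with 15 windows in all, among them 6 for Sgk1 and 3 for Tsc22d3. Entries were lacking for Nr3c1 and Zbtb16. The full palindromic glucocorticoid response element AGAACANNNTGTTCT was found in 3 of 32851 promoter windows of the genome (0.00913%), and 1 of these was a window of Sgk1, chr10:21993640-21993939 on the plus strand, where the match, in capitals, begins at position -189 from the start site.

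Sgk1: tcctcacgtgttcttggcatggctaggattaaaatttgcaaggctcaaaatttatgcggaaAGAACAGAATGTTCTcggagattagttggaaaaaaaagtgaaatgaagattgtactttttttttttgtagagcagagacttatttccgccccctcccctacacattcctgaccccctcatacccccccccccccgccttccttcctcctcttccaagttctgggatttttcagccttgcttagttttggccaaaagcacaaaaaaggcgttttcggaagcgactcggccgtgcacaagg

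A single arm of the palindrome, TGTTCT, searched on both strands, is common, with 19.0% of all windows holding it, and every full palindrome contains it. It was present in 4 of the 15 member windows, 3 of Sgk1 and 1 of Tsc22d3. The core of the metal response element, TGCGCNC or TGCACNC on either strand, was found in 25.7% of all windows. Of the 15 member windows 4 held it, 1 each of Hsd11b1, Mt1, Mt2 and Sgk1. At least 3 cores were found in 1.97% of windows, and those of Mt1, chr8:94178839-94179138 on the plus strand, and Mt2, chr8:94172368-94172667 on the plus strand, were among them. At least 4 cores, the number in Mt2, were found in 0.517% of windows, and Mt1 held 3. In the sequences of both, capitals mark the cores, which begin at positions -223, -128, -50 and 5 in Mt2 and at -23, 3 and 21 in Mt1. A core read in the reverse sense appears as its reverse complement.

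Mt2: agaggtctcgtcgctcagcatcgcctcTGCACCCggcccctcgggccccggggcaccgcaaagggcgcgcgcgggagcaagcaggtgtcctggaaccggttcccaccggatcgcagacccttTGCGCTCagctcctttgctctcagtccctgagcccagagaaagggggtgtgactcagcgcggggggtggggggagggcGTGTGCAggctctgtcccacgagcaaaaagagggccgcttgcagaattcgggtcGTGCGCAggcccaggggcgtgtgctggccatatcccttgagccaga

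Mt1: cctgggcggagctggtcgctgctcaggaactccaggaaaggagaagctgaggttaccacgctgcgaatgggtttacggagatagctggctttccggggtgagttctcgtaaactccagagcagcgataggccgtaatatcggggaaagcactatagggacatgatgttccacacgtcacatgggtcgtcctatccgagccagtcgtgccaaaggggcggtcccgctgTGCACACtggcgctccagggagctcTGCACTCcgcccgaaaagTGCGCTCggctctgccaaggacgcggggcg

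These matches describe letters within the windows, and binding of the receptor or of a metal-sensing factor was not measured.

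The 6 libraries held 15354161 to 18787036 counts assigned to genes, and 15400 genes were tested. Slc35d3, the targeted gene, was at 76.6 ± 4.79 CPM (counts scaled to library size) in WT and 770 ± 24.0 CPM in SAKI mice (mean ± SD, n = 3), with a log2 fold change of 3.33 (edgeR adjusted p = 0.000244), so that it follows the labels in each library. All 12 markers of mature adipocytes were detected in both groups. WT 2 nevertheless stood apart from the other WT libraries. On the first principal component, which held 49.5% of the variance, WT 1 was at -33.9 and WT 3 at -47.6, whereas WT 2 was at 17.9 and the SAKI libraries were between 19.3 and 22.2. The share of counts from mitochondrially encoded genes was 7.31% in WT 1, 8.78% in WT 3, 13.8% in WT 2 and 13.1 to 15.9% in SAKI mice. Results whose call changed without WT 2 are therefore given with and without it. WT 2 was singled out for its likeness to the SAKI libraries, and leaving out such a library favours larger differences between the groups. Without it 2598 genes were called, against 5 with all 6 libraries. Values without WT 2 are thus not an independent test of genotype.

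None of the 10 genes differed between SAKI and WT mice in edgeR's quasi-likelihood test at an adjusted p under 0.05, where 0.0325% of all genes tested passed. Mt2 alone passed at an unadjusted p under 0.05, against 18.4% of all genes. DESeq2 called 0 of the 10, with 4.70% of all genes called. With limma on log2(FPKM + 1), 0 of the 10 were called and only 9 among all genes. Log2 fold changes were below 0 for 7 genes and above 0 for 3, beside 50.4% of all genes below 0, and their median was -0.15, beside -0.0035 for all genes tested. The groups overlapped for every one of the 10 genes, whereas 25.4% of all genes tested had groups that did not overlap. Without WT 1, the groups of Fkbp5 and Klf9 did not overlap, beside 35.8% of all genes, and without SAKI 2 those of Fkbp5, Zbtb16 and Mt2 did not, beside 32.2%. For Mt2 this rests on the TMM scaling recomputed without SAKI 2, under which WT 2 was at 390 CPM and SAKI 3 at 389, whereas on the scaling over all 6 libraries these were at 380 and 392 CPM and the groups still overlapped. An exact permutation test for each gene, two-sided over the 6 libraries, gave p from 0.2 to 0.9, and 3 against 3 libraries cannot give a value below 0.1. These p-values rest on the share of assignments of libraries to groups that give a difference of means at least as extreme, with single mice as the units. Standard errors of the log2 fold changes ran from 0.18 to 0.53, and the intervals of several genes, given below, reach well past 1 on the log2 scale.

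**Figure D1:**
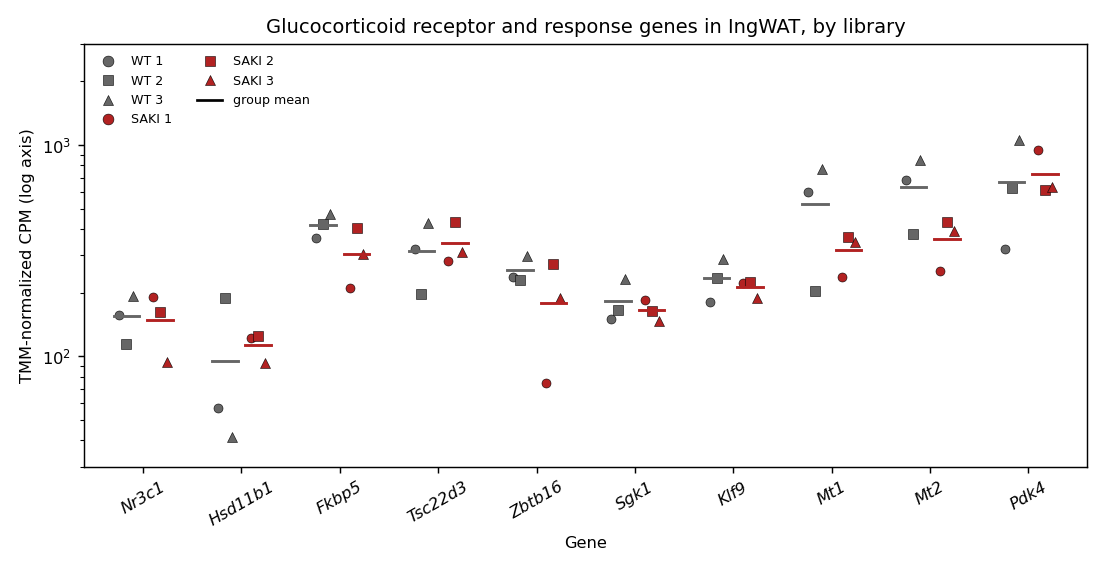
TMM-normalized CPM on a log axis for the 10 genes, with 1 marker for each library (circle, square and triangle for mouse 1, 2 and 3 of a group) and a line at the group mean. The 2 groups overlap for every gene, and WT 3 is the highest library in 8 of the 10.

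Nr3c1, which encodes the glucocorticoid receptor itself (chromosome 18, 39410545 to 39491301, minus strand, GRCm38), was at 157 CPM in WT 1, 114 in WT 2, 193 in WT 3, 191 in SAKI 1, 161 in SAKI 2 and 93.6 in SAKI 3. The lowest and nearly the highest value both came from SAKI mice, and the groups overlapped almost completely. WT mice averaged 155 ± 39.5 CPM and SAKI mice 149 ± 50.0 (n = 3 each), a log2 fold change of -0.06 (SE 0.29, 95% interval -0.75 to 0.64, edgeR adjusted p = 0.932). Without WT 2 the log2 fold change was -0.23 (edgeR adjusted p = 0.606). The interval reaches well to both sides of 0, so that the data do not show the levels to be alike. In a bulk sample such as this, fewer cells of a type and less RNA per cell cannot be told apart.

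Hsd11b1 encodes the enzyme of the endoplasmic reticulum that converts inert keto-glucocorticoids back into active hormone, and thus sets the local supply in fat (chromosome 1, 193221634 to 193264075, minus strand). Its level was 57.1 CPM in WT 1, 188 in WT 2, 41.5 in WT 3, 122 in SAKI 1, 125 in SAKI 2 and 92.8 in SAKI 3. WT 2 was thus the highest and WT 3 the lowest of the 6, and all 3 SAKI libraries lay between WT 1 and WT 2. This 4.52-fold span from lowest to highest was the widest among the 10 genes, and it lay within the WT group. Over all libraries the means were 95.4 ± 80.3 and 113 ± 17.8 CPM, with a log2 fold change of 0.25 (SE 0.53, 95% interval -1.0 to 1.5, edgeR adjusted p = 0.823). Without WT 2, Hsd11b1 was higher in SAKI mice, with a log2 fold change of 1.20 (SE 0.19, 95% interval 0.74 to 1.67, edgeR adjusted p = 0.0145), but in that comparison 7.41% of all genes were called higher. The gene body overlaps Lamb3 and 4930570N18Rik on the other strand and Gm38118 on its own, and since the strand setting of the counting is not given in the sources used here, reads of these genes cannot be told apart.

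As a sum, markers of fibroblasts and adipocyte progenitors had the same order of high and low as Hsd11b1 in the WT group. Their summed level over 10 genes was 4538 CPM in WT 1, 9859 in WT 2 and 3273 in WT 3, and 8979 to 10176 CPM in SAKI mice. Of the 10 markers 5 were highest in WT 2 and 8 lowest in WT 3. Thy1 and Ly6a did not follow the sum, at 96.3, 68.2 and 75.3 CPM and at 102, 139 and 160 CPM in WT 1 to 3. A log2 fold change above 0 was found for 8 of the 10, 0 passed the test and the median was 0.54. Without WT 2, 7 of the 10 passed and were higher in SAKI mice, beside 7.41% of all genes. The summed level of 10 macrophage markers had the same order among the WT libraries, though Cd14 and Fcgr1 did not follow it. The sum was 1149 CPM in WT 1, 1976 in WT 2 and 962 in WT 3, and 2016 to 2389 CPM in SAKI mice. Of these 10 markers, 8 were above 0, 0 passed and the median was 0.57. The groups did not overlap for 4, beside 25.4% of all genes. Without WT 2, 7 passed and were higher in SAKI mice, beside 7.41% of all genes. For Dpp4, a surface marker of progenitors, the values were 43.9, 112 and 34.2 CPM in WT 1 to 3 and 106, 121 and 112 CPM in SAKI 1 to 3. The part of either cell type in the Hsd11b1 values was not tested. Adipocyte markers did not follow that order, with 23018 CPM in WT 1, 32216 in WT 2, 28766 in WT 3 and 21386 to 23686 CPM in SAKI mice. All 12 had a log2 fold change below 0, with 0 past the test and a median of -0.43. The groups did not overlap for 6 of them, beside 25.4% of all genes. Without WT 2, 3 passed lower, beside 9.14% of all genes. The part of adipocyte RNA in the lower values of response genes was not tested. Other cell type lists varied as well. Skeletal muscle markers summed to 5967, 547 and 845 CPM in WT 1 to 3 and to 420 to 2939 CPM in SAKI mice. All 10 markers of T and NK cells were above 0, with 7 not overlapping. All 10 of smooth muscle and pericytes were below 0, with 5 not overlapping, beside 25.4% of all genes. None of these passed the test, and their part in the member values was not tested.

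**Figure D2:**
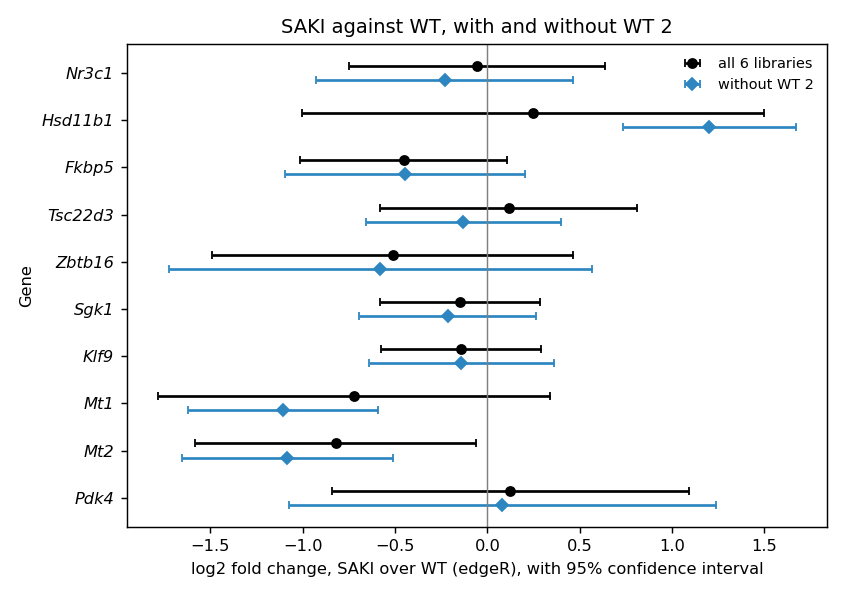
Log2 fold change of SAKI over WT from edgeR for each gene, with its 95% confidence interval, for all 6 libraries (black circles) and without WT 2 (blue diamonds). Without WT 2 the intervals of Hsd11b1, Mt1 and Mt2 lie away from 0, at 1.20, -1.10 and -1.08.

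Fkbp5, Tsc22d3 and Zbtb16 are among the most widely used readouts of receptor activity. Fkbp5 encodes the cochaperone that lowers the affinity of the receptor for hormone and closes a short feedback loop (chromosome 17, 28399095 to 28517524, minus strand). Its gene body overlaps 4 genes, AC154912.1, AC154912.3, AC154912.5 and Gm22146, 2 of them on its own strand, and their reads cannot be told apart. Its level was 364, 422 and 472 CPM in WT 1 to 3 and 211, 402 and 305 CPM in SAKI 1 to 3. Only SAKI 2 reached into the WT range, and SAKI 1 was the lowest library. The means were 419 ± 53.8 in WT and 306 ± 95.6 CPM in SAKI mice, with a log2 fold change of -0.45 (SE 0.24, 95% interval -1.01 to 0.11, edgeR adjusted p = 0.346). Without SAKI 2 the groups no longer overlapped, and the test was not passed in that fit either.

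Zbtb16 encodes a zinc finger repressor, PLZF, that glucocorticoids induce strongly in several tissues (chromosome 9, 48654311 to 48835945, minus strand). It was at 237, 231 and 299 CPM in WT 1 to 3 and at 75.0, 273 and 189 CPM in SAKI 1 to 3. SAKI 1 stood far below the other 5 libraries, at -1.41 on the log2 scale from the mean of the gene, and SAKI 2 exceeded WT 1 and WT 2. The log2 fold change was -0.51 (SE 0.41, 95% interval -1.49 to 0.46, edgeR adjusted p = 0.526), and it was between -0.97 and -0.16 when single libraries were left out. SAKI 1 was the lowest library for Fkbp5, Zbtb16 and Mt2, but not for the other response genes.

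Tsc22d3, the gene of the anti-inflammatory leucine zipper protein GILZ (chromosome X, 140539528 to 140600659, minus strand), did not share that order. Its level was 322, 198 and 429 CPM in WT 1 to 3 and 283, 433 and 311 CPM in SAKI 1 to 3. WT 2 was the lowest library and SAKI 2 the highest, and the groups overlapped. Its log2 fold change was 0.11 (SE 0.30, 95% interval -0.58 to 0.81, edgeR adjusted p = 0.853), which became -0.13 without WT 2 and -0.11 without SAKI 2.

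Sgk1, a kinase gene that glucocorticoids and mineralocorticoids induce and the one with the full palindrome in a promoter window (chromosome 10, 21882184 to 21999903, plus strand), was among the least variable members. It was at 151, 165 and 232 CPM in WT 1 to 3 and at 184, 163 and 147 CPM in SAKI 1 to 3. WT 3 was the highest and the other 5 libraries lay close together. The log2 fold change was -0.15 (SE 0.18, 95% interval -0.58 to 0.29, edgeR adjusted p = 0.691). Klf9, a zinc finger transcription factor gene that responds to glucocorticoid within a short time (chromosome 19, 23141226 to 23166911, plus strand), also had its highest value in WT 3. Its values were 180, 234 and 288 CPM in WT 1 to 3 and 223, 225 and 188 CPM in SAKI 1 to 3. The WT libraries enclosed all 3 SAKI libraries. The gene body overlaps Mir1192 on its own strand. The log2 fold change was -0.14 (SE 0.18, 95% interval -0.58 to 0.29, edgeR adjusted p = 0.697). For both genes the interval excludes a change of 1 on the log2 scale in either direction.

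Pdk4 encodes the kinase that shuts off pyruvate dehydrogenase in fasting and is induced by glucocorticoids, fatty acids and PPAR ligands (chromosome 6, 5483351 to 5496309, minus strand). Its level was 321, 629 and 1060 CPM in WT 1 to 3 and 942, 615 and 633 CPM in SAKI 1 to 3. WT 1 was the lowest and WT 3 the highest, with all SAKI libraries between them. The means were 670 ± 371 and 730 ± 184 CPM, with a log2 fold change of 0.12 (SE 0.41, 95% interval -0.84 to 1.09, edgeR adjusted p = 0.886). Of 14 tested genes for the other pyruvate dehydrogenase kinases and the fasting response, 0 passed the test. Of these, 5 were below and 9 above 0 and the median was 0.06. Without WT 2, 1 passed lower and 2 higher, beside 9.14% and 7.41% of all genes. Pdk1, the kinase of this family best known as a target of hypoxia signaling, was at 76.8, 102 and 66.5 CPM in WT 1 to 3 and at 130, 114 and 117 CPM in SAKI 1 to 3. These Pdk1 groups did not overlap, with a log2 fold change of 0.56 (edgeR adjusted p = 0.192, and 0.0118 without WT 2). Pdp1, a phosphatase gene that opposes these kinases, had a log2 fold change of -0.36 (edgeR adjusted p = 0.367).

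Mt1 and Mt2 encode metallothioneins, small cysteine-rich proteins that bind zinc and copper, and they respond to metals and oxidative stress as well as to glucocorticoids. They lie 5522 bases apart on the plus strand of chromosome 8, Mt2 from 94172618 to 94173567 and Mt1 from 94179089 to 94180325. Mt1 was at 597, 203 and 769 CPM in WT 1 to 3 and at 238, 367 and 347 CPM in SAKI 1 to 3. WT 1 and WT 3 lay above every SAKI library, and WT 2 lay below all of them. The means were 523 ± 290 and 317 ± 69.7 CPM, with a log2 fold change of -0.72 (SE 0.45, 95% interval -1.78 to 0.34, edgeR adjusted p = 0.418).

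Mt2 was at 680, 380 and 846 CPM in WT 1 to 3 and at 254, 433 and 392 CPM in SAKI 1 to 3. WT 1 and WT 3 were again the highest, while WT 2 lay between SAKI 1 and SAKI 3. The means were 635 ± 236 and 360 ± 93.9 CPM and the log2 fold change was -0.82 (SE 0.32, 95% interval -1.58 to -0.06). The edgeR p was 0.0381 unadjusted and 0.253 adjusted, so Mt2 did not pass over all genes. Without WT 2, both genes were lower in SAKI mice, Mt1 with a log2 fold change of -1.10 (SE 0.21, edgeR adjusted p = 0.0227) and Mt2 with -1.08 (SE 0.24, edgeR adjusted p = 0.0307). In that comparison 9.14% of all genes were called lower. With Hsd11b1 these made 3 of 10 members called, beside 16.6% of all genes, and the same 3 were the only members whose groups then did not overlap, beside 52.7% of all genes.

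The metallothionein pair did not move as a unit in WT 2. Per length, the ratio of Mt1 to Mt2 in FPKM was 0.904 in WT 1, 0.937 in WT 3 and 0.873 to 0.964 in SAKI mice, but 0.549 in WT 2. The transcripts compared were 549 and 511 bases long and 65.9% identical over their alignment, with 20 bases as the longest identical stretch and no shared window of 50 bases. The summed level of both genes was 1278 CPM in WT 1, 583 in WT 2, 1615 in WT 3, 491 in SAKI 1, 801 in SAKI 2 and 738 in SAKI 3. Fitted as 1 feature, a step chosen after the values were seen, the pair had a log2 fold change of -0.78 (edgeR adjusted p = 0.315). Mt2 overlaps the antisense gene Gm45774, whose reads cannot be told apart from its own without strand.

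Of the zinc transporters and other metal handling genes, 13 were tested and 0 passed, with 9 below and 4 above 0 and a median of -0.17. Without WT 2, 2 passed lower and 1 higher, beside 9.14% and 7.41% of all genes. Slc39a8, a zinc and manganese importer gene, was low throughout, at 4.36, 6.55 and 2.68 CPM in WT 1 to 3 and at 15.6, 8.08 and 10.0 CPM in SAKI 1 to 3. Its groups did not overlap and its log2 fold change was 1.31 (edgeR adjusted p = 0.188, and 0.0304 without WT 2). Slc39a13 had a log2 fold change of -0.35 (edgeR adjusted p = 0.188) and Slc39a10 one of -0.42 (edgeR adjusted p = 0.250, and 0.022 without WT 2), both zinc transporter genes.

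**Figure D3:**
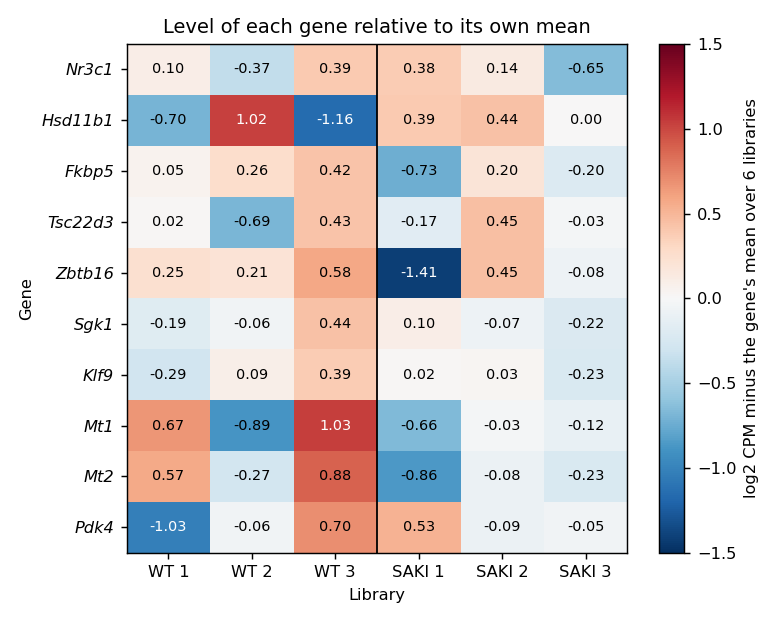
Log2 CPM of each gene in each library minus the mean of that gene over the 6 libraries, with red above and blue below the mean and the difference printed in each cell. WT 3 is above the mean for every gene except Hsd11b1, SAKI 3 is below it for every gene except Hsd11b1, and SAKI 1 is lowest for Zbtb16 at -1.41.

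Read by library, WT 3 was the highest library for 7 of the 8 response genes and for Nr3c1, where 27.1% of all genes tested were highest in WT 3. It was above the mean of the gene for 8 of 8 response genes, against 49.4% of all genes, with a median of 0.51 on the log2 scale. Tsc22d3 was the response gene not highest in WT 3, at 429 CPM there against 433 CPM in SAKI 2. SAKI 3 was below the mean of the gene for 8 of 8 response genes, against 49.8% of all genes, but by little, with a median of -0.16. The corresponding medians were 0.03 in WT 1, -0.06 in WT 2, -0.42 in SAKI 1 and -0.0017 in SAKI 2. WT 2 lay within the range of the SAKI libraries for 5 of the 10 members, beside 34.1% of all genes. The coefficient of variation was larger in WT than in SAKI mice for 7 of the 10. No share over all genes was taken for this count, and WT 2 stood apart from WT 1 and WT 3 on the first principal component. The 10 genes share libraries and were chosen as a pathway, so that they are not independent of each other and no test was made over them.

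The genes of the chaperones that hold the receptor ready for hormone were also highest in WT 3. Of 14 chaperone and cochaperone genes, 14 had a log2 fold change below 0 and 0 passed the test, with a median of -0.48. Of these, 7 were at an unadjusted p under 0.05, beside 18.4% of all genes, and 4 had groups that did not overlap, beside 25.4%. Each of the 14 had its highest level in WT 3. Their summed level was 3616 CPM in WT 1, 2622 in WT 2, 5383 in WT 3 and 2574 to 2724 CPM in SAKI mice. Hsp90aa1, the inducible Hsp90, was at 193, 140 and 363 CPM in WT 1 to 3 and at 143, 117 and 125 CPM in SAKI 1 to 3, a log2 fold change of -0.86 (edgeR adjusted p = 0.250, and 0.0354 without WT 2). The groups of Bag1, a cochaperone gene of Hsp70, did not overlap, with 134 to 170 CPM in WT and 104 to 109 CPM in SAKI mice (log2 fold change -0.50, edgeR adjusted p = 0.166, and 0.0193 without WT 2). Stub1, a ubiquitin ligase gene that acts on chaperone clients, had a log2 fold change of -0.32 (edgeR adjusted p = 0.206, and 0.0295 without WT 2). Without WT 2, 9 of the 14 passed and were lower in SAKI mice, beside 9.14% of all genes.

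Among 12 coregulators of the receptor, 0 passed, with 4 below and 8 above 0 and a median of 0.10. Without WT 2, 2 passed lower and 1 higher, beside 9.14% and 7.41% of all genes. The groups of the coactivator gene Ncoa3 did not overlap, with 75.2 to 90.4 CPM in WT and 101 to 104 CPM in SAKI mice (log2 fold change 0.32, edgeR adjusted p = 0.210). The acetyltransferase gene Ep300 had a log2 fold change of 0.29 (edgeR adjusted p = 0.251).

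Of 10 genes for steroid supply and related receptors 8 were tested and 0 passed, with 4 on either side of 0 and a median of 0.04. Without WT 2, 1 passed and was lower, beside 9.14% of all genes. H6pd, which makes the NADPH on which the Hsd11b1 enzyme depends for its reductase activity, was at 685, 530 and 692 CPM in WT 1 to 3 and at 491, 539 and 431 CPM in SAKI 1 to 3, a log2 fold change of -0.38 (edgeR adjusted p = 0.261, and 0.0416 without WT 2). H6pd did not follow the order of Hsd11b1 across the WT libraries, since it was lowest among them in WT 2. The mineralocorticoid receptor gene Nr3c2, whose product also binds corticosterone, was at 6.02 to 8.82 CPM in WT and 7.57 to 12.5 CPM in SAKI mice (log2 fold change 0.47, edgeR adjusted p = 0.340).

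A broader list of 40 other genes known to respond to glucocorticoids gave no common direction. None passed the test, 18 were below and 22 above 0 and the median was 0.06. In this list 14 genes were highest in WT 3 and 9 in WT 2, and the median over the list was 0.22 in WT 3, -0.20 in WT 1 and -0.06 to 0.11 in the other libraries. Angptl4, an inhibitor of lipoprotein lipase that is also in the fasting list, was at 668, 391 and 695 CPM in WT 1 to 3 and at 358, 309 and 350 CPM in SAKI 1 to 3. Its groups did not overlap and its log2 fold change was -0.79 (edgeR adjusted p = 0.188, and 0.00529 without WT 2). Those of Tgm2, a transglutaminase gene, did not overlap either, with 349 to 427 CPM in WT and 265 to 292 CPM in SAKI mice (log2 fold change -0.47, edgeR adjusted p = 0.174, and 0.0247 without WT 2). Map3k6, a stress kinase gene, was at 134 to 229 CPM in WT and 85.1 to 115 CPM in SAKI mice (log2 fold change -0.78, edgeR adjusted p = 0.184, and 0.022 without WT 2). Without WT 2, 3 of the 40 passed lower and 5 higher in SAKI mice, beside 9.14% and 7.41% of all genes.

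Immediate early genes, which tissue handling as well as hormones can induce, were for the most part highest in WT 3 as well. Of 25 tested, 22 were below 0 and 0 passed, with 10 at an unadjusted p under 0.05, beside 18.4% of all genes, and a median of -0.50, and 18 had their highest level in WT 3. Without WT 2, 9 passed lower and 1 higher, beside 9.14% and 7.41% of all genes. Their summed level was 1668 CPM in WT 1, 1271 in WT 2, 2345 in WT 3 and 1051 to 1135 CPM in SAKI mice. WT 1 and WT 2 did not keep that order in the mean log2 CPM over the list, which was 4.83 and 4.86 in them and 5.58 in WT 3. Jun, a subunit of AP-1, was at 120, 69.3 and 148 CPM in WT 1 to 3 and at 58.0, 52.3 and 53.9 CPM in SAKI 1 to 3 (log2 fold change -1.04, edgeR adjusted p = 0.170, and 0.00367 without WT 2). Maff was at 12.6 to 59.4 CPM in WT and 9.65 to 11.5 CPM in SAKI mice (log2 fold change -1.71, edgeR adjusted p = 0.190, and 0.00838 without WT 2), and Ier3 had a log2 fold change of -1.27 (edgeR adjusted p = 0.192). Whether handling of the tissue had a part in the high values of the response genes in WT 3 was not tested.

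Clock genes, given because corticosterone follows the time of day, were highest in WT 3 for 2 of 18 tested and lowest there for 7. Of the 18, 11 were below and 7 above 0, 0 passed and the median was -0.03. Without WT 2, 1 passed in each direction, beside 9.14% lower and 7.41% higher among all genes. The median over the list was lowest in SAKI 3, at -0.26, and highest in WT 2, at 0.24. It was -0.18 in WT 3 and -0.13 in WT 1. Since the list joins genes that peak at different times of day, this median cannot show a shift in phase. Nr1d1, a repressor of the clock, was at 254, 199 and 230 CPM in WT 1 to 3 and at 134, 99.0 and 141 CPM in SAKI 1 to 3. Its groups did not overlap and its log2 fold change was -0.87 (edgeR adjusted p = 0.148, and 0.0169 without WT 2). Ciart had a log2 fold change of 0.78 (edgeR adjusted p = 0.292) and Bhlhe40 one of -0.53 (edgeR adjusted p = 0.331), both genes of clock repressors. Time of collection and genotype cannot be told apart here.

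**Figure D4:**
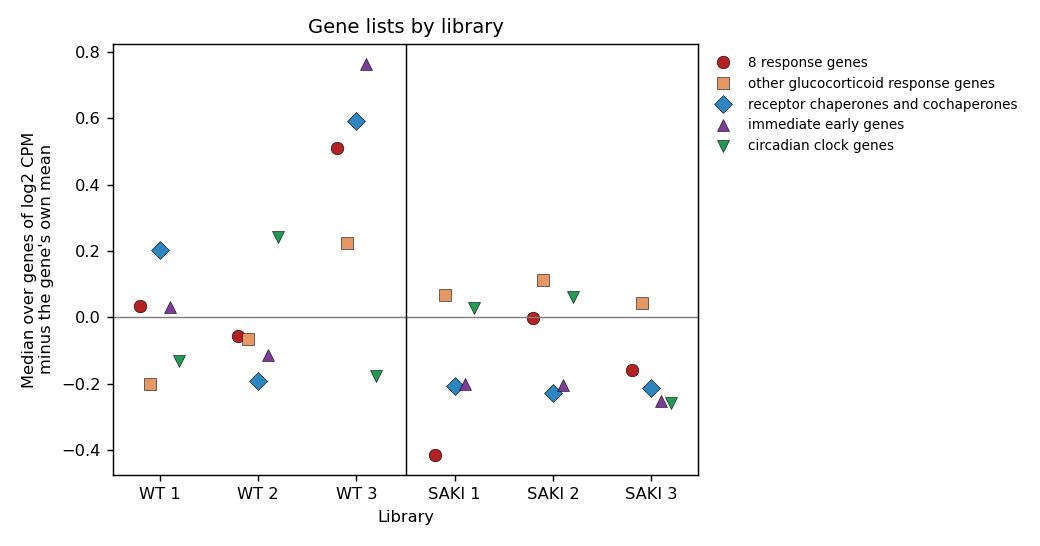
For each library, the median over the genes of a list of the log2 CPM minus the mean of the gene over the 6 libraries, for the 8 response genes and for 4 related lists. WT 3 is the highest library for the response genes (0.51), the chaperones (0.59) and the immediate early genes (0.76), whereas the clock genes are at -0.18 there.

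Compared per length as mean FPKM over the 6 libraries, Mt2 at 893 and Mt1 at 778 were the most abundant of the 10 transcripts, followed by Pdk4 at 174, Klf9 at 68.0, Zbtb16 at 42.5, Tsc22d3 at 40.8, Fkbp5 at 32.5, Sgk1 at 16.9, Hsd11b1 at 16.5 and Nr3c1 at 9.03. The receptor gene itself was thus the least abundant of the set on this scale. Only Mt1 against Pdk4 and Klf9 against Zbtb16 were neighbours whose ranges over the 6 libraries lay apart, and the other neighbours overlapped. Each member had between 634 and 16190 counts in every library.

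The genes whose pattern over the 6 libraries was most like that of Nr3c1, Hsd11b1 and Fkbp5 were sought among 11084 genes by the root mean square difference in log2 CPM after centring. For Nr3c1 these were Zmym5, with a difference of 0.0729, Serpinh1 (0.154) and Alkbh4 (0.157). Zmym5 was at 79.4, 54.7 and 90.0 CPM in WT 1 to 3 and at 88.8, 77.7 and 50.3 CPM in SAKI 1 to 3, with the lowest value in SAKI 3 as for Nr3c1. For Hsd11b1 they were Pcolce2 (0.152), Tppp (0.155) and Reck (0.165). Pcolce2 was at 31.5, 95.8 and 25.3 CPM in WT 1 to 3 and at 67.7, 76.8 and 66.1 CPM in SAKI 1 to 3. For Fkbp5 they were Egfr (0.133), Aldh3b2 (0.146) and Fbrs (0.167). Egfr was at 143, 182 and 227 CPM in WT 1 to 3 and at 94.2, 148 and 140 CPM in SAKI 1 to 3, with the highest value in WT 3 and the lowest in SAKI 1 as for Fkbp5. With 6 libraries and this many genes, likeness of this degree is a description of these libraries.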

How the data were processed

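Libraries were made from poly(A) RNA of IngWAT, 1 for each of 3 WT and 3 SAKI mice, grouped by the sample labels. For every library the authors deposited a file of raw gene counts, and beside these a single table with the FPKM values of all 6, in which each count is divided by gene length and library total (equal implied length within 1% in all 15144 genes compared). Among the tools in the submitters' processing notes are StringTie 1.3.0, HISAT2 2.0.4 and Bowtie2 2.2.6, and the build is GRCm38. The role of each and how reads were counted, strand included, are not given in any source used here. The labels and the methods of the study name different RNA extraction reagents.

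The count analysis used edgeR 4.0.16 under R 4.3.3, with filterByExpr (minimum count 10, total 15), TMM scaling, genotype alone and the quasi-likelihood test, with Benjamini-Hochberg adjustment over 15400 genes and a threshold of 0.05. Levels are TMM-normalized CPM and intervals are 95% intervals. Each edgeR standard error was derived from the test, as the absolute log2 fold change over the square root of the F statistic. The intervals are that standard error times a quantile of the t distribution to either side of the log2 fold change. Steps were tested on simulated counts. The results were recomputed with upper-quartile and RLE scaling, with DESeq2 1.42.0, with limma 3.58.1 on log2(FPKM + 1) or log2(FPKM + 0.1), with other filters, without mitochondrially encoded genes, with the replicate number as a block and without each library.

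The members and the gene lists were chosen with earlier results of these data known. All 10 members were named, and of each other list the 3 genes of smallest p and any gene called, except 2 list genes whose values are not reported here. Likeness was sought among genes with a mean of at least 5 CPM, predicted and mitochondrially encoded genes and immunoglobulin segments left out. Overlapping genes and the metallothionein transcripts were from GENCODE release M21.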

Additional observations from a re-analysis of the deposited data

How the results depend on the processing

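Of 160 values of the members under 16 alternatives, 147 kept their direction and their side of the threshold, and every change of sign came from leaving out a library. The number of members called was 0 under each scaling, filter, tool and pseudocount tried and 0 to 3 when single libraries were left out, with 3 only without WT 2. Members whose groups did not overlap numbered 0 to 3. Without WT 1 they were Fkbp5 and Klf9, beside 35.8% of all genes. Without WT 2 they were Hsd11b1, Mt1 and Mt2, beside 52.7%. Without SAKI 2 they were Fkbp5, Zbtb16 and Mt2, beside 32.2%, where Mt2 depends on the scaling recomputed without that library. Log2 fold changes on leaving out single libraries ran from -0.29 to 0.19 for Nr3c1, from -0.11 to 1.20 for Hsd11b1, from -0.13 to 0.40 for Tsc22d3, from -0.27 to 0.061 for Sgk1, from -0.30 to 0.031 for Klf9 and from -0.21 to 0.62 for Pdk4, which all changed sign, and from -0.72 to -0.26 for Fkbp5, from -0.97 to -0.16 for Zbtb16, from -1.10 to -0.34 for Mt1 and from -1.08 to -0.56 for Mt2, which did not. Of all genes tested, edgeR called 5, against 724 with DESeq2, 8 without a filter on low counts, 9 with log2(FPKM + 1), 9 with log2(FPKM + 0.1), 1 with the replicate block and 1 to 2598 without single libraries, the largest number being that without WT 2. The cause was not tested. The replicate block changed no call of a member, and the numbers were not taken to pair the mice, since the deviations of same-numbered libraries from their group means correlated at 0.066 to 0.077 and each WT library correlated best with a SAKI library of another number. The labels give no batch or date, and 3 mice a group leave the fold changes of most members uncertain beyond 0.5 on the log2 scale.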
